A study of Mus musculus with 35 samples.

Results

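Immediate early genes were followed across induced pluripotent stem (iPS) cell clones made from 3 adult cell sources. The genes are Egr1, Egr2, Egr3, Fos, Fosb, Jun, Junb, Ier2, Ier3 and Atf3, 10 of the 27962 gene names on the array, measured by every probe that carries one of these names, 13 of 41174 gene probes. The members were chosen by the PαS to OP difference in these same arrays, Egr2 first and the others gathered around it, so that this difference is given below as a description, with no p value. Of the 13 probes 12 entered the tests, which took in probes measured above background throughout some group. Each gene is represented by its brightest probe.

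RNA was hybridized in 1 colour (Cy3) to Agilent mouse arrays. PαS cells (labelled PaS) are bone marrow mesenchymal stem cells sorted as CD45-Ter119-PDGFRa+Sca-1+, OP cells are bone marrow osteoprogenitors sorted as CD45-Ter119-PDGFRa-Sca-1-, and TTF are tail tip fibroblasts. All came from 6-week-old mice that carry a Nanog-GFP reporter with puromycin resistance. For the clones they were infected with pMX retroviruses for Oct3/4, Sox2, Klf4 and c-Myc (4F) or for the same factors without c-Myc (3F), together with a DsRed virus. GFP-positive, DsRed-negative colonies were picked and grown under puromycin with LIF on mitomycin C-treated SNL feeder cells, a fibroblast line, so that RNA of feeder cells can be in every clone sample. There were 6 groups of 5 clones (4F- and 3F-clones of PαS, OP and TTF), 1 array each of the ES lines EB-3 and RF8, and 1 array each of the source cells, which for PαS and OP had been expanded in culture after the sort. Nothing says which clones descend from separate animals or infections, so that p values measure the spread between clones.

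Immediate early genes are switched on within minutes of a growth factor, serum or stress signal, from transcription factors that already sit on their promoters, without new protein synthesis. MAP kinases reach them through serum response factor and its Elk partners at CArG boxes, and through CREB and AP-1 factors. Egr proteins are zinc finger factors that bind GC-rich sites, Fos and Jun proteins pair to form AP-1, and Atf3 belongs to the same bZIP family. In stem cell cultures the same genes follow serum, attachment and handling, and Fos and Egr1 are standard readouts of ERK signalling.

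Promoters are shown for Egr2, on which the choice of genes turned, for Jun, the member with the highest correlation with Egr2 among clones once group means were removed, and for Fos, which varied together with Junb and Ier3. Each is the 250 bases before a RefSeq start site on GRCm38.p6, read 5′ to 3′ along the gene. Capitals mark the CArG box in Egr2 (chr10:67537619-67537868, plus strand), the variant AP-1 site TGACATCA in Jun (chr4:95052223-95052472, minus strand) and the TATA box TATAAA in Fos (chr12:85473640-85473889, plus strand).
Egr2: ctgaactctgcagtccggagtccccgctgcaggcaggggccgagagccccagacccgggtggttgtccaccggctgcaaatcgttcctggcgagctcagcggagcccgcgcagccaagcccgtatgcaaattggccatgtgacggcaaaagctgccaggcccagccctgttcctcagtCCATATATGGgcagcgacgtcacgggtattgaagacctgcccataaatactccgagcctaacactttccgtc
Jun: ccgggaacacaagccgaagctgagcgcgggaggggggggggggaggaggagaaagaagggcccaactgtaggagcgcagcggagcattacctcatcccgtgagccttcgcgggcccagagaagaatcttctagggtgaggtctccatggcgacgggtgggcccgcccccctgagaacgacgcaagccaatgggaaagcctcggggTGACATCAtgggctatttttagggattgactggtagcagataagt
Fos: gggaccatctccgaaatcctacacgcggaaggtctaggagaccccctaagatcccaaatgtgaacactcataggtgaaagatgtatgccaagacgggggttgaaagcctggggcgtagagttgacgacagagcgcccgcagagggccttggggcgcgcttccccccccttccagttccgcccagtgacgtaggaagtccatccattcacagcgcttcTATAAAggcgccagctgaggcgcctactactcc

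RefSeq start sites in the table used here matched 7 of the 10 members, Egr2 with 5 start windows. The CArG box lay at position -72 from the Egr2 start shown. Of the 5 Egr2 windows 4 held a CArG box, 3 of them this same site, since these windows overlap, and the fourth another sequence. Of all 32851 promoter windows of this length 1.47% held one. The letters TGACATCA lay in 2.93% of all windows and TATAAA in 12.4%. The Egr site GCGNGGGCG was found in the Fosb window (4.70% of all windows). The cAMP response element TGACGTCA (1.55% of windows) and the AP-1 sites TGACTCA and TGAGTCA (4.46%) were in none of the members' windows. Both strands were searched, no motif found overlapped another, and these matches describe letters in a window, not bound sites.

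Some features of the arrays bear on the values. Markers of pluripotent cells set the clones apart from the source cells, yet Sox2 and Nanog were not well above background in 4F-OP clones 1 and 3 and in 4F-TTF clone 1, while Pou5f1 was above background in all clones. 4F-OP clone 2 kept both above background, but its mean over 11 pluripotency markers, relative to all clones, was -3.60, beside -4.27 and -4.32 in 4F-OP clones 1 and 3 and 1.71 and 0.79 in clones 4 and 5. The c-Myc signal, read by 3 probes, did not always follow the factor label. At the probe farthest upstream (mm7 chr15:62063665-62063724) the 3F-PαS clones lay between -3.79 and -3.44 and the 3F-TTF clones between -4.14 and -3.06 on the log2 scale, whereas the libraries labelled 3F-OP clones 1 and 3 stood at 1.66 and 0.59, inside the range of the 4F-OP clones (-2.53 to 3.40). The 4F-PαS clones reached from -3.71 to -0.70 and met the 3F range. At the probe farthest downstream all 30 clones lay within -0.91 to 0.92. Many, but not all, results that rest on these 3 and these 2 clones are given with and without them. The 30 clones shared 8 slides and 1 scan session, 3F- and 4F-clones of a source never met on a slide, and the ES arrays were scanned in other sessions. Well-measured probes made up 56.6% to 71.1% per array, and the number of arrays limits the precision.

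Egr2, a zinc finger factor known from hindbrain patterning, Schwann cell myelination and T-cell control, was lower in PαS-derived than in OP-derived clones. Levels are log2 of the probe's intensity minus the 75th percentile of its array. In order of clone number, Egr2 (probe at mm7 chr10:67145376-67145435) stood at -3.53, -3.35, -3.61, -4.32 and -4.38 in 4F-PαS clones and at -3.82, -3.57, -3.50, -2.97 and -3.09 in 3F-PαS clones. The 4F-OP clones had 0.48, -2.95, -2.49, -2.63 and -2.89, and the 3F-OP clones -1.34, -0.03, -2.42, -0.69 and -0.55. The highest PαS clone and the lowest OP clone almost touched, but no PαS clone reached any OP clone. The mean difference was -2.06 (SE 0.40), a 4.18-fold lower level, made of -1.74 (SE 0.56) among 4F-clones and -2.38 (SE 0.56) among 3F-clones.

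Since no PαS clone reached any OP clone, the sign on any shared slide was fixed, and only the sizes are described here. On the slides that PαS- and OP-derived clones shared, Egr2 differed (PαS minus OP) by -2.34 among 3F-clones (2 clones each), -2.76 among 4F-clones (2 clones each) and -0.68 among 4F-clones (1 clone against 3) on the log2 scale. The -2.76 rests on 4F-OP clone 1, the brightest OP clone, which has Sox2 and Nanog not above background, and without it that slide gave -1.04 (2 clones against 1). The difference among all 4F-clones was -1.10 without this clone. With the slide as a fixed block the difference was -2.11 (SE 0.49). Without the 3 clones low in Sox2 and Nanog it was -1.70 (SE 0.36), and without the libraries labelled 3F-OP clones 1 and 3 it was -2.35 (SE 0.41). Background correction by normexp gave -1.05 (SE 0.31).

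The 4F-TTF clones stood at -3.72, -3.40, -3.80, -3.58 and -2.02, in the range of the PαS clones apart from clone 5, and the 3F-TTF clones at -0.81, -0.89, -0.81, -1.34 and -1.62, in the range of the 3F-OP clones. The order of the group means ran from 4F-PαS (-3.84 ± 0.48, SD, n = 5) through 3F-PαS (-3.39 ± 0.35), 4F-TTF (-3.30 ± 0.73) and 4F-OP (-2.10 ± 1.45) to 3F-TTF (-1.09 ± 0.37) and 3F-OP (-1.01 ± 0.92). Neighbours in this order overlapped, 4F-TTF with 4F-OP through 4F-TTF clone 5 alone. 4F-OP clone 1 lay above all 3F-TTF clones and the other 4F-OP clones below them.

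**Figure D1:**
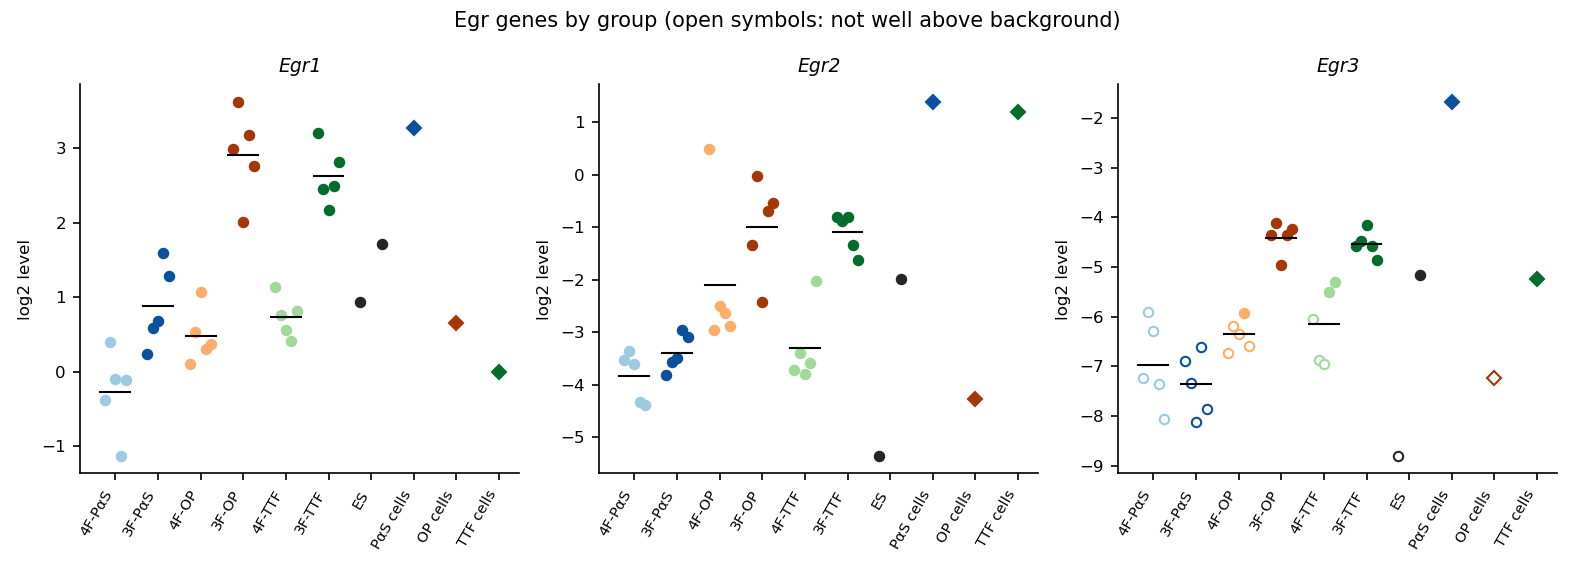
Log2 levels (intensity over the array's 75th percentile) of Egr1, Egr2 and Egr3 on each array, with 5 clones per group, the EB-3 and RF8 ES arrays and 1 array per source. Bars are group means and open symbols are not well above background. No PαS clone reaches an OP clone in Egr2, and Egr3 is measured in all 3F-OP and 3F-TTF clones but in no PαS clone.

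Egr1, the family member most used as a readout of ERK signalling, had 4F-PαS levels of -0.38, 0.39, -0.10, -1.13 and -0.11 and 3F-PαS levels of 0.24, 0.59, 0.68, 1.59 and 1.28. It stood at 0.11, 0.54, 1.07, 0.31 and 0.38 in 4F-OP clones and at 2.99, 3.62, 2.00, 3.17 and 2.77 in 3F-OP clones. The PαS to OP difference was -1.39 (SE 0.21) over both factor sets, -0.75 (SE 0.30) among 4F-clones, which overlapped, and -2.03 (SE 0.30) among 3F-clones, which did not. Egr3, a close relative of Egr2, was not well above background in any PαS clone and was measured in all 5 3F-OP and all 5 3F-TTF clones (mm7 chr14:64726656-64726715). The 3F-OP clones stood at -4.36, -4.11, -4.96, -4.36 and -4.24, at least 3.45-fold above the 3F-PαS clones, and the 3F-TTF clones were at least 3.16-fold above them. Such a bound sets the bright group's mean against the dimmest measurable signal on each array of the dim group. A second Egr3 probe was above background on none of the 35 arrays.

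The PαS to OP difference was negative for all 10 members, from -2.06 for Egr2 to -0.10 for Atf3, with a median of -0.58 beside 0.03 over all probes tested. Under normexp that of Egr3 turned to 0.0869. The threshold used for calls (an adjusted p under 0.05 and at least 2-fold) was met by 3 of the 10 (Egr1, Egr2 and Egr3), by 1 under normexp, and by 1.60% of the 27623 probes. As this contrast chose the members, nothing is read from these counts. The smaller differences were -0.66 (SE 0.34) for Jun, -0.64 (SE 0.39) for Fos, -0.52 (SE 0.17) for Junb, -0.48 (SE 0.14) for Ier2, -0.27 (SE 0.24) for Fosb and -0.25 (SE 0.28) for Ier3. Pluripotency markers differed too, with a median of 1.81 over 11 genes (1 higher in PαS clones), and fibroblast markers had a median of -0.07 over 20 genes (none called by limma, and none at an unadjusted p under 0.05). The part of these cell types in the differences was not tested. In Egr2, chosen by this difference, the 10 PαS clones lay below all 10 OP clones, with -2.97 and -2.95 as the nearest values. In the other 9 members the clones overlapped, and 0.0434% of all probes lay lower in all PαS clones. Against TTF-derived clones, the PαS-derived clones differed by -1.42 (SE 0.40) in Egr2 and -1.38 (SE 0.21) in Egr1. The same clones serve in both contrasts, and OP minus TTF was 0.65 (SE 0.40) and 0.01 (SE 0.21).

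Whether TTF-derived clones differed from the bone marrow-derived ones was tested against the mean of PαS and OP, a contrast independent of the one that chose the members. None of the 10 members passed with limma, beside 0.0145% of all probes. At an unadjusted p under 0.05, 1 of the 9 other than Egr3 did, Egr1 (0.68, SE 0.18, adjusted p = 0.127), and 10.6% of all probes. Egr3 is left out of this count, as it was above background in no PαS clone and entered the tests through 3F-OP and 3F-TTF clones. For Egr2 the difference was 0.38, with a 95% confidence interval of -0.32 to 1.09.

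The factor mix set a second contrast, balanced over the sources. Averaged over the 3 sources, Egr1 and Egr2 were higher in 3F- than in 4F-clones, 2 of the 9 members other than Egr3, beside 4.27% of all probes called higher. Egr3 met the threshold as well, but it entered the tests through the 3F-OP and 3F-TTF clones, where it was high, and so had to differ in this comparison and in those within OP and TTF. The medians of the log2 difference were 0.65 over the 10 members, Egr3 included although it had to differ, and 0.03 over all probes. Egr1 rose 3.53-fold (log2 1.82, SE 0.17, adjusted p = 7.86e-07) and Egr2 2.38-fold (1.25, SE 0.33, adjusted p = 0.00751). The fitted difference of Egr3 was 1.05 (SE 0.27, adjusted p = 0.00668). Fosb, the Fos relative whose short splice form gathers under lasting stimulation, had an adjusted p of 0.00203 at less than 2-fold (0.90, SE 0.19). The remaining values were 0.68 (SE 0.28) for Atf3, 0.63 (SE 0.28) for Jun, 0.44 (SE 0.32) for Fos, 0.32 (SE 0.14) for Junb, 0.14 (SE 0.12) for Ier2 and -0.26 (SE 0.23) for Ier3, with adjusted p from 0.0774 to 0.448.

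With the slide as a random block the difference stayed past the threshold for Egr1 (1.80, SE 0.23, adjusted p = 0.000422) and not for Egr2 (1.06, SE 0.47, adjusted p = 0.198) or Egr3 (0.96, adjusted p = 0.142). Without the 2 libraries labelled 3F-OP in which c-Myc was high, Egr1 differed by 1.91, Egr2 by 1.44 and Egr3 by 1.11, each past the threshold. Normexp kept the call for Egr1 and ended it for Egr2 (0.64, adjusted p = 0.104) and Egr3 (0.09, adjusted p = 0.821). Fosb passed with that block (1.00, SE 0.25, adjusted p = 0.0265). The difference of Egr3 fell under 2-fold, at 0.96 to 0.99, when 4F-PαS clone 5, 3F-PαS clone 4 or 4F-TTF clone 2 or 3 was left out.

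In OP-derived clones Egr1 was higher in 3F-clones, 1 of the 9 members other than Egr3, beside 3.94% of all probes called higher. Egr1 rose 5.38-fold (log2 2.43, SE 0.30, adjusted p = 6.44e-05), and the lowest 3F-OP clone, at 2.00, stood above the highest 4F-OP clone, at 1.07. Egr3, which the filter took in through these 3F-clones, differed by 1.95 (SE 0.47, adjusted p = 0.0129), at least 3.0-fold. Its adjusted p was 0.112 (difference 1.83) without the 3 clones low in Sox2 and Nanog, and 0.0813 (2.05) with the slide as a random block. Egr2 differed by 1.09 (SE 0.56, adjusted p = 0.234) with overlapping groups, and 4F-OP clone 1 was the brightest OP clone of all. Without that clone the difference was 1.74 (adjusted p = 0.0482), and without the libraries labelled 3F-OP clones 1 and 3 it was 1.67 (adjusted p = 0.0845). Ier2 and Fosb also had 3F-OP clones that all lay above the 4F-OP clones, as 2.31% of all probes did, with differences of 0.62 (SE 0.20, adjusted p = 0.0562) and 0.88 (SE 0.34, adjusted p = 0.102). By the second Ier2 probe the groups overlapped and the difference was 0.01 (95% confidence interval -0.29 to 0.31). Atf3, a stress-induced factor of the CREB family, differed by 1.36 (SE 0.48, adjusted p = 0.0737), and by 1.93 (adjusted p = 0.0047) without 4F-OP clone 2, one of the 3 clones of its group low in pluripotency markers.

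In TTF-derived clones Egr1, Egr2 and Fosb were higher in 3F-clones, 3 of the 9 members other than Egr3, beside 3.97% of all probes called higher. Egr2 rose 4.63-fold (2.21, SE 0.56, adjusted p = 0.0142), and even 4F-TTF clone 5 at -2.02 stayed under the lowest 3F-TTF clone at -1.62. Egr1 rose from 1.14, 0.76, 0.56, 0.41 and 0.81 to 3.21, 2.45, 2.17, 2.49 and 2.81, which is 3.70-fold (1.89, SE 0.30, adjusted p = 0.000533). Fosb differed by 1.07 (SE 0.34, adjusted p = 0.0417), and Egr3, taken in through the 3F-clones, by 1.61 (SE 0.47, adjusted p = 0.0292), at least 1.95-fold. Of these 4 genes, Egr1, Egr2 and Fosb had 3F-clones that all lay above the 4F-clones, as did 9.57% of all probes. Egr3 did too, but had to differ. Ier3, a survival factor that ERK phosphorylates, ran the other way, at 2.74, 2.72, 2.72, 2.77 and 1.24 in 4F- and 1.23, 1.25, 1.23, 0.94 and 1.70 in 3F-TTF clones, a difference of -1.17 (SE 0.40, adjusted p = 0.0591). Without 4F-TTF clone 5 it was -1.47 (adjusted p = 0.0199), and its adjusted p was 0.0272 without either ES array and 0.0423 without 4F-PαS clone 4.

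The calls within TTF-derived clones did not stand with the slide in the model. With a random slide block Egr1 differed by 1.95 (adjusted p = 0.0557) and Egr2 by 2.00 (adjusted p = 0.352), and with a fixed block, which leaves only the links through other groups, by 2.12 (SE 0.68) and 1.15 (SE 1.49), with none of the 4 genes called. Normexp kept the call for Egr1 and ended it for Egr2 (1.42, adjusted p = 0.0706), Fosb (0.54, adjusted p = 0.337) and Egr3 (0.32, adjusted p = 0.741). Leaving out 4F-TTF clone 1, 2 or 3 or 3F-TTF clone 3 or 4 took the calls, Egr3 included, from 4 to 2 by losing Egr3 (adjusted p 0.0586 to 0.0854) and Fosb (0.052 to 0.09). Slide and factors cannot be told apart within PαS- and OP-derived clones.

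In PαS-derived clones no member was called by limma, beside 0.0181% of all probes, and 5 of the 10 had an unadjusted p under 0.05, beside 17.3% of all probes. These 5 were Fos (1.50, SE 0.55, adjusted p = 0.181), Egr1 (1.14, SE 0.30, adjusted p = 0.125), Ier3 (1.02, SE 0.40), Junb (0.74, SE 0.24) and Fosb (0.74, SE 0.34). For Egr2 the difference was 0.45, with a 95% confidence interval of -0.71 to 1.61, and Jun differed by 0.14 (-0.84 to 1.12). Without 4F-PαS clone 3 Egr1 passed the threshold (1.18, adjusted p = 0.0387), as did 1.92% of all probes. 4F-PαS clones 1 and 4, alone on their slide, held the lowest levels of the 4F-PαS group in Fos (-3.32 and -4.35), Fosb (-5.20 and -5.34, not above background), Junb (3.78 and 3.26) and Ier3 (0.51 and 0.03). The remaining 3 clones spanned -2.02 to -0.87 in Fos and 1.76 to 2.22 in Ier3. Without clones 1 and 4 the difference within PαS was 0.51 in Fos (adjusted p = 0.927), 0.36 in Ier3 (adjusted p = 0.93), 0.82 in Egr1 (adjusted p = 0.909), 0.47 in Junb (adjusted p = 0.909) and 0.02 in Fosb (adjusted p = 0.993). Slide and clone cannot be told apart there.

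**Figure D2:**
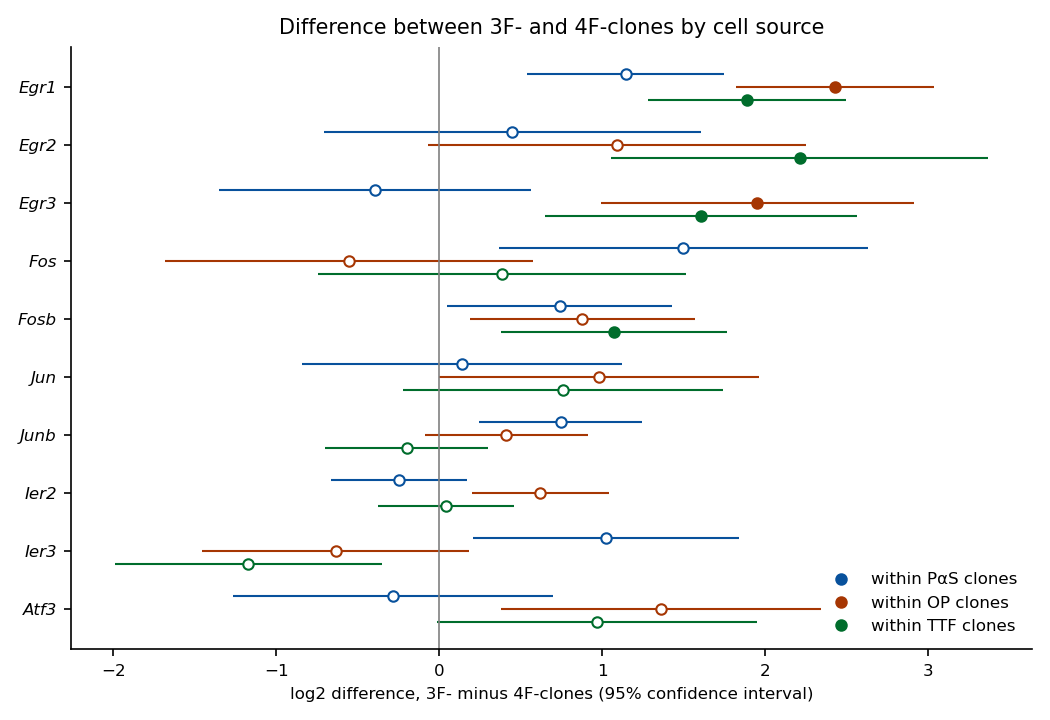
Log2 difference between 3F- and 4F-clones for each member, by source, with 95% confidence intervals from the limma fit. Filled points passed an adjusted p under 0.05 and 2-fold. Egr1 lies above 0 in all 3 sources, whereas Ier3 is positive in PαS and negative in OP and TTF.

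The difference between sources in this change was tested as an interaction. Between PαS and OP no member was called, beside 0.648% of all probes, and 5 of the 9 other than Egr3 had an unadjusted p under 0.05 (18.9% of all probes). The PαS change of Egr3 has no measured level. The values nearest the threshold were -1.28 (SE 0.42, adjusted p = 0.108) for Egr1 and -0.87 (SE 0.29, adjusted p = 0.113) for the brightest Ier2 probe, smaller changes in PαS clones, and 1.66 (SE 0.56, adjusted p = 0.12) for Ier3 and 2.05 (SE 0.78, adjusted p = 0.157) for Fos, the other way. The second Ier2 probe gave 0.11 (SE 0.21), of opposite sign. Fos passed without 4F-OP clone 4 (2.55, adjusted p = 0.0303), where 6.43% of all probes did, and Egr1 without the libraries labelled 3F-OP clones 1 and 3 (-1.56, adjusted p = 0.0484), where 2.28% did. Without 4F-PαS clones 1 and 4 the values were 1.06 for Fos (adjusted p = 0.489) and 0.99 for Ier3 (adjusted p = 0.385).

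Between PαS and TTF no member was called, beside 0.583% of all probes, and 3 of the 9 other than Egr3 had an unadjusted p under 0.05 (19.3% of all probes). Ier3 came closest, with a change that was 2.19 higher in PαS clones (SE 0.56, adjusted p = 0.0593). It passed at 0.0194 to 0.0485 when 4F-PαS clone 2, 3F-PαS clone 1, 4F-OP clone 2 or 4, 4F-TTF clone 5 or either ES array was left out, and with the clone number as a replicate block (adjusted p = 0.0477). Under these settings 0.789% to 2.05% of all probes passed. Without 4F-PαS clones 1 and 4 it was 1.53 (adjusted p = 0.182). Between OP and TTF no member and 0.00% of all probes were called, and no member had an unadjusted p under 0.05. For Egr2 the interaction was -0.64 against OP clones (SE 0.80) and -1.76 against TTF clones (SE 0.80, adjusted p = 0.226).

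Markers of fibroblasts, the cell type of the feeders, were measured in all 3 sources, and some differed between 3F- and 4F-clones. Over 20 such genes, 3 were higher in 3F-clones (Postn, Lox and Col5a1), beside 4.27% of all probes, and the median difference was 0.70. Their mean level relative to all clones ran from -0.96 to 0.30 in 4F-PαS, 0.08 to 0.21 in 3F-PαS, -1.59 to 0.51 in 4F-OP, -0.83 to 1.83 in 3F-OP, -0.88 to 0.87 in 4F-TTF and -0.44 to 0.90 in 3F-TTF clones, and 19 or 20 of the 20 were above background on every clone array. Within PαS and TTF clones limma called no marker. At an unadjusted p under 0.05 there were 0 and 1 of the 20, beside 17.3% and 26.1% of all probes. Within OP-derived clones Col5a1 and Loxl1 were higher, beside 3.94% of all probes, and the median was 1.32. None of these 5 calls stood with the slide as a random block (adjusted p 0.172 to 0.314). Without the 3 clones low in Sox2 and Nanog those over the 3 sources ended. The values were then 1.41 for Postn (adjusted p = 0.181), 1.26 for Lox (adjusted p = 0.0989) and 0.80 for Col5a1 (adjusted p = 0.0795). The 11 markers of pluripotent cells ranged from 0.78 to 1.95 in 4F-PαS, -0.26 to 1.49 in 3F-PαS, -4.32 to 1.71 in 4F-OP, -0.51 to 1.02 in 3F-OP, -3.39 to 1.09 in 4F-TTF and -0.09 to 0.66 in 3F-TTF clones, with Dppa5 higher in 3F-clones and Dppa5 and Zfp42 higher in 3F-OP clones, calls that the random slide block also ended (adjusted p 0.143 to 0.325). Over the 3 sources Dppa5 was 0.65 higher (adjusted p = 0.212) without the 3 clones low in Sox2 and Nanog. It was also not called without 3F-OP clones 1 and 3 (1.81, adjusted p = 0.0533) or without 4F-PαS clones 1 and 4 (1.77, adjusted p = 0.0772). Normexp ended the call too (1.78, adjusted p = 0.0553). The part of either cell type in the Egr differences was not tested, and fewer cells of a type cannot be told apart from less RNA per cell.

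Related genes were counted by fixed lists, which were written with earlier results of these data known. Among 11 relatives in the AP-1 and Egr families, only Batf, an AP-1 factor of lymphocytes, was higher in 3F-clones (1.23, SE 0.36, adjusted p = 0.0157), and the median difference was -0.00337. Within OP-derived clones Batf (2.01) and Egr4 (1.63), the fourth Egr gene, were higher. Against 4.27% of all probes, 3 of 36 other early response genes were higher: Il6, a cytokine (1.35), Dusp2, a MAP kinase phosphatase (1.16), and Rhob, a small GTPase (1.03, SE 0.15, adjusted p = 6.21e-05), with a list median of 0.38. Rhob was also higher within OP (1.41) and TTF clones (1.52), Dusp2 within TTF clones (1.87), and Ier5l (1.60), Sgk (1.35) and Plk3 (1.08) within OP clones. Dusp6, the ERK phosphatase, fell by 1.25 in 3F-TTF clones (SE 0.32, adjusted p = 0.0149). Of 12 upstream factors (serum response factor, its partners, CREB and the ERK cascade) none was called with limma, and 7 had an unadjusted p under 0.05, beside 34.6% of all probes. Of 8 heat shock and stress genes none was, with 3 at an unadjusted p under 0.05. Trib3, a stress-induced pseudokinase, was higher within OP clones (1.72). With the slide as a random block none of the calls over the 3 sources stood, with 1.05 for Batf (adjusted p = 0.255), 1.26 for Il6 (adjusted p = 0.159), 1.09 for Dusp2 (adjusted p = 0.187) and 0.97 for Rhob (adjusted p = 0.018, under 2-fold). Of these 4 only Il6 stayed past the threshold without the 3 clones low in Sox2 and Nanog (1.29, adjusted p = 0.0455), and none did under normexp. Within TTF clones Rhob (1.27, adjusted p = 0.181), Dusp2 (1.47, adjusted p = 0.525) and Dusp6 (-1.08, adjusted p = 0.36) lost theirs, and with a fixed block the differences were 0.12, -0.48 and -0.19, so that Dusp2 changed sign. Within OP clones Ier5l and Rhob kept theirs under the random block. All 11 genes called within OP clones, the marker genes included, lost the call without the 3 clones low in Sox2 and Nanog. Of these 11 genes 8 kept it without 3F-OP clones 1 and 3, 4 under normexp and 9 under quantile normalization. Within PαS clones none of the 4 lists had a call by limma, with 4, 9, 1 and 0 genes at an unadjusted p under 0.05, beside 17.3% of all probes.

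Fos, the founding AP-1 partner, and its relatives varied widely between clones of 1 group. Fos (mm7 chr12:83478431-83478490) ranged from -4.35 to -0.87 in 4F-PαS clones (median -2.02) and from -2.69 to 0.73 in 4F-OP clones (median -0.96), but only from -1.21 to -0.72 in 3F-PαS clones. Fosb (chr7:16985502-16985561) ranged up to -2.15 over all clones and was above background in 28 of 30. Jun (chr4:94441779-94441838) was tighter, between -0.09 and 0.60 in all 10 PαS clones, and between 0.10 and 2.03 in OP clones. Its 3F-TTF clones, at 1.57, 1.65, 1.74, 1.77 and 1.58, met the 4F-TTF clones only in clone 5 at 1.71. Junb (chr8:83563097-83563156), another AP-1 subunit, lay between 3.26 and 5.47, Ier2 (chr8:83243584-83243618), a nuclear protein of early serum response, between 1.71 and 3.38, Ier3 (chr17:33924245-33924304) between 0.03 and 2.89 and Atf3 (chr1:190724174-190724233) between -0.08 and 3.09.

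**Figure D3:**
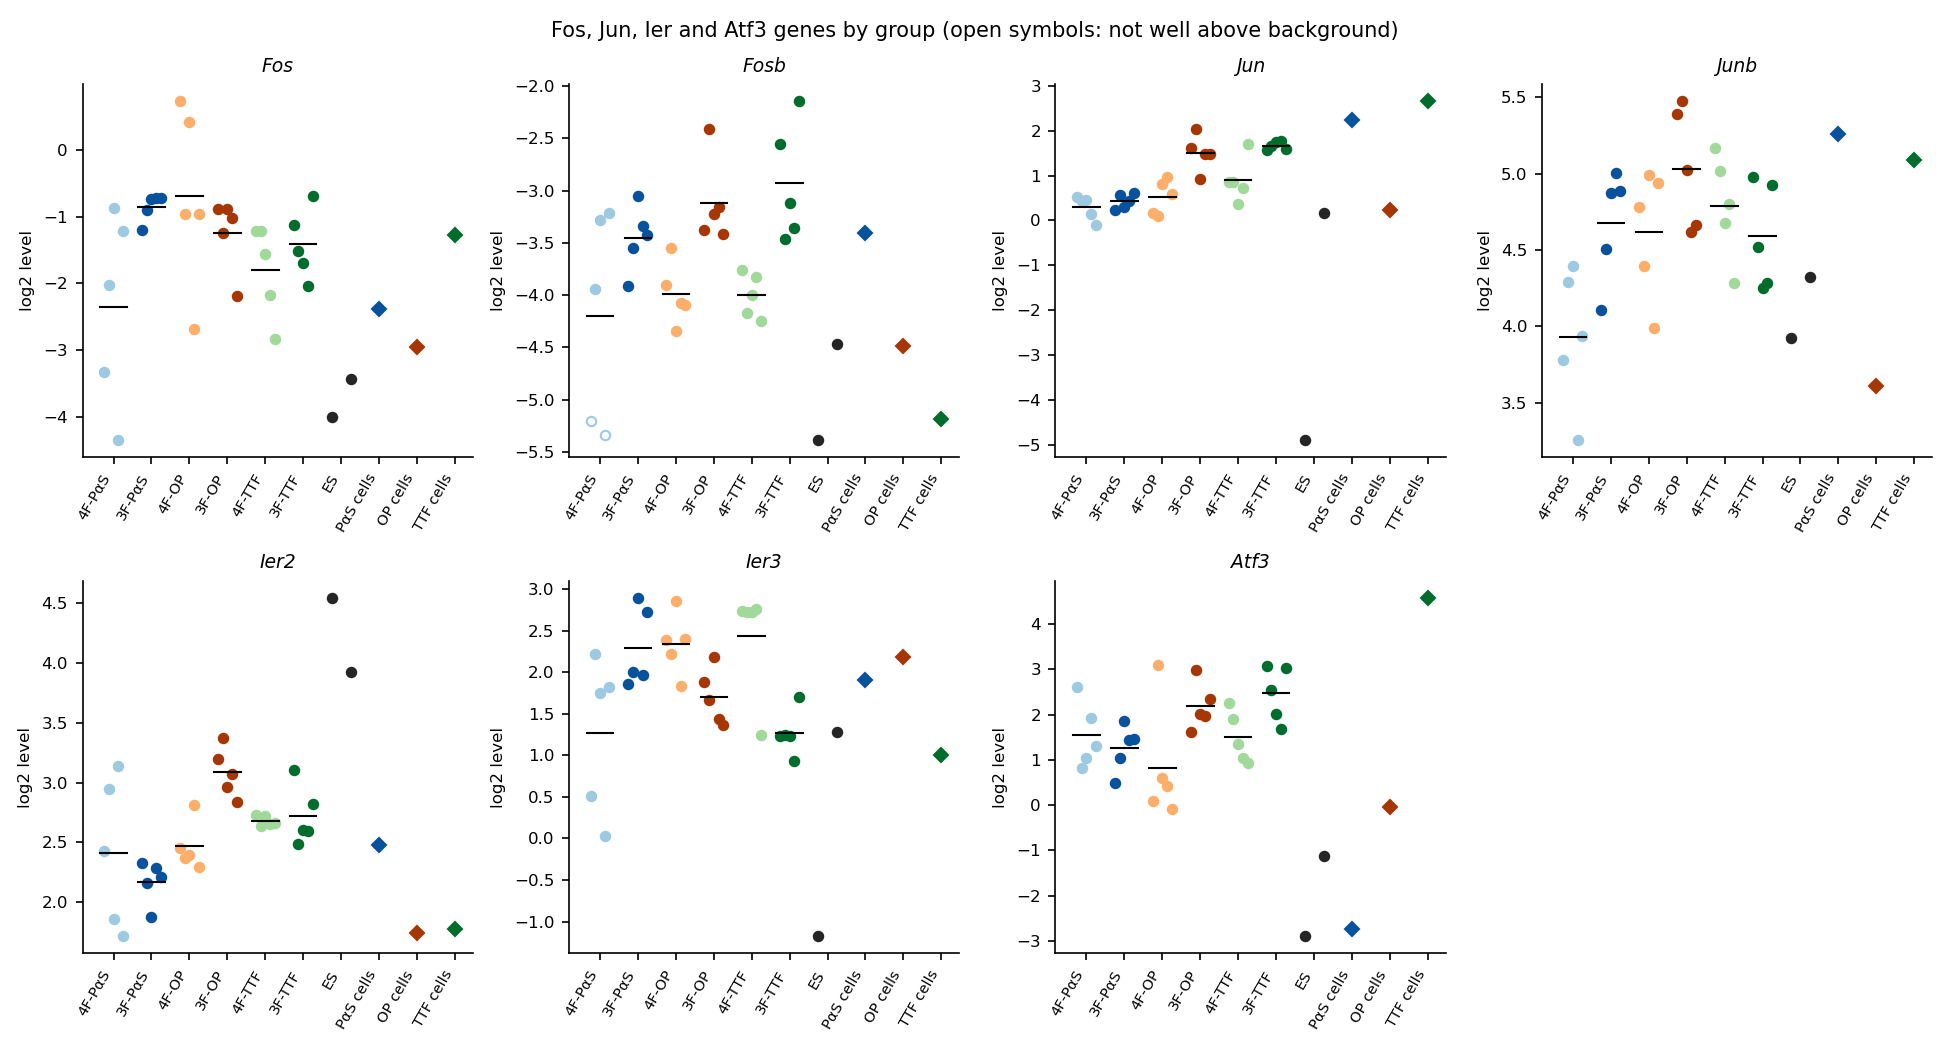
Log2 levels of Fos, Fosb, Jun, Junb, Ier2, Ier3 and Atf3 on each array, drawn with the same symbols as the Egr genes (bars for group means, open symbols for not well above background, diamonds for source cells). Atf3 lies above both ES arrays in all 30 clones, and 4F-PαS clones 1 and 4 are low in Fos, Fosb, Junb and Ier3.

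After group means were removed, Fos, Junb and Ier3 went up and down together among the 30 clones. Pearson's r was 0.74 for Fos and Junb (Spearman's rho 0.72, permutation p = 3e-05 and 9e-05, adjusted p = 0.00072 over 36 pairs), 0.75 for Fos and Ier3 (rho 0.75, adjusted p = 0.00132) and 0.72 for Junb and Ier3 (rho 0.67, adjusted p = 0.00072). With the 2 most distant clones left out r was 0.63, 0.69 and 0.64. Within groups on 1 slide it was 0.79, 0.67 and 0.73. By source r for Fos and Junb was 0.76 in PαS, 0.66 in OP and 0.88 in TTF clones. Egr1 with Junb (r = 0.62, rho 0.65, adjusted p = 0.0113) and Fosb with Junb (r = 0.56, rho 0.55, adjusted p = 0.0298) also passed, at 0.38 and 0.37 within slides, as did Fos with Fosb (r = 0.61, 0.09 within slides) and Fosb with Ier3 (r = 0.62), whose rho had adjusted p of 0.0768 and 0.0683. Egr3, above background in 13 of 30 clones, is set aside here. Of the 28 pairs without Egr2 and Egr3, 7 passed by r and 5 by rho, with p adjusted over 36 pairs.

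**Figure D4:**
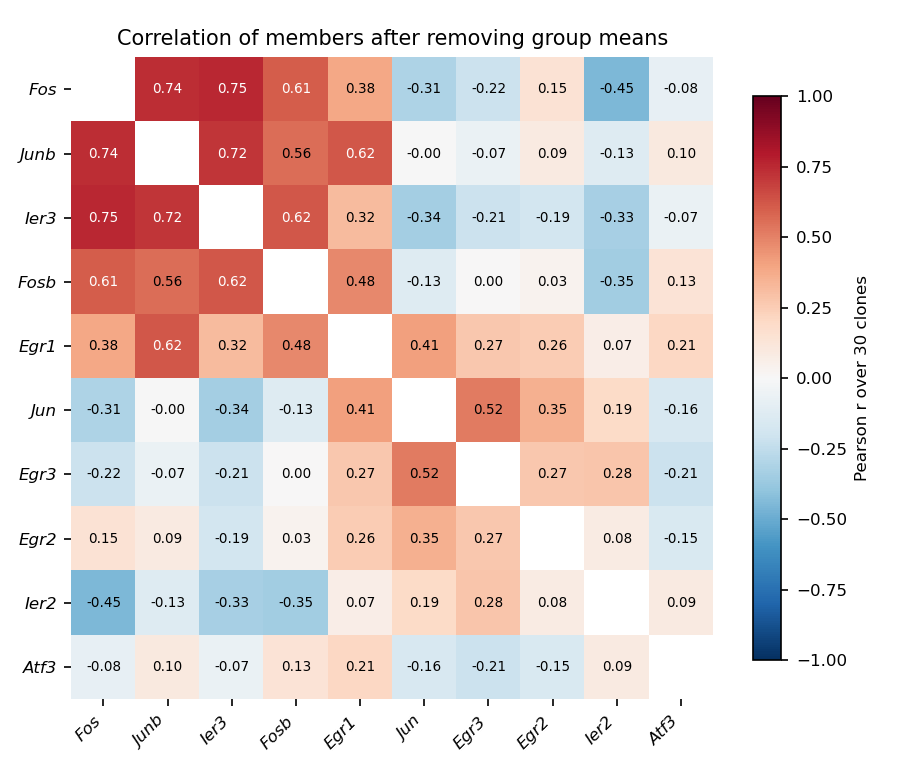
Pearson correlation between members over 30 clones after the mean of each group was removed, with r written in each cell and colour from -1 (blue) to 1 (red). Fos, Junb and Ier3 form the block at 0.72 to 0.75, and the highest r of Egr2 is 0.35, with Jun. Cells of Egr3 rest largely on signal not above background.

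Egr2 stood apart from that block. None of its 9 correlations passed an adjusted p of 0.05, the highest being with Jun (r = 0.35, permutation p = 0.149, adjusted p = 0.522). By rank Egr2 and Jun had rho 0.45 (permutation p = 0.026, adjusted p = 0.234), and none of the 9 had an unadjusted p under 0.05 by r. Within groups on 1 slide r of Egr2 and Jun was 0.55, with all clones included. The picture also rested on few clones. 4F-OP clone 1, 2.57 above its group mean in Egr2, had the second-lowest Jun of its group, and without the 3 clones low in Sox2 and Nanog Egr2 correlated with Jun (r = 0.80, adjusted p = 0.00063) and Egr1 (r = 0.62, adjusted p = 0.00621). With 4F-OP clone 1 and 3F-OP clone 3 left out, the most distant in Egr2, r was 0.71 and 0.65 once group means were recomputed (adjusted p = 0.0027 and 0.0109), and 0.59 with Jun before that. By source the correlation of Egr2 with Jun was 0.80 in PαS, 0.08 in OP and 0.84 in TTF clones, with 10 clones each. The OP value was 0.77 without 4F-OP clone 1, and the TTF value 0.26 without 4F-TTF clone 5, which stood apart in Egr2. With any 1 PαS clone left out it lay between 0.73 and 0.90 in PαS clones.

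**Figure D5:**
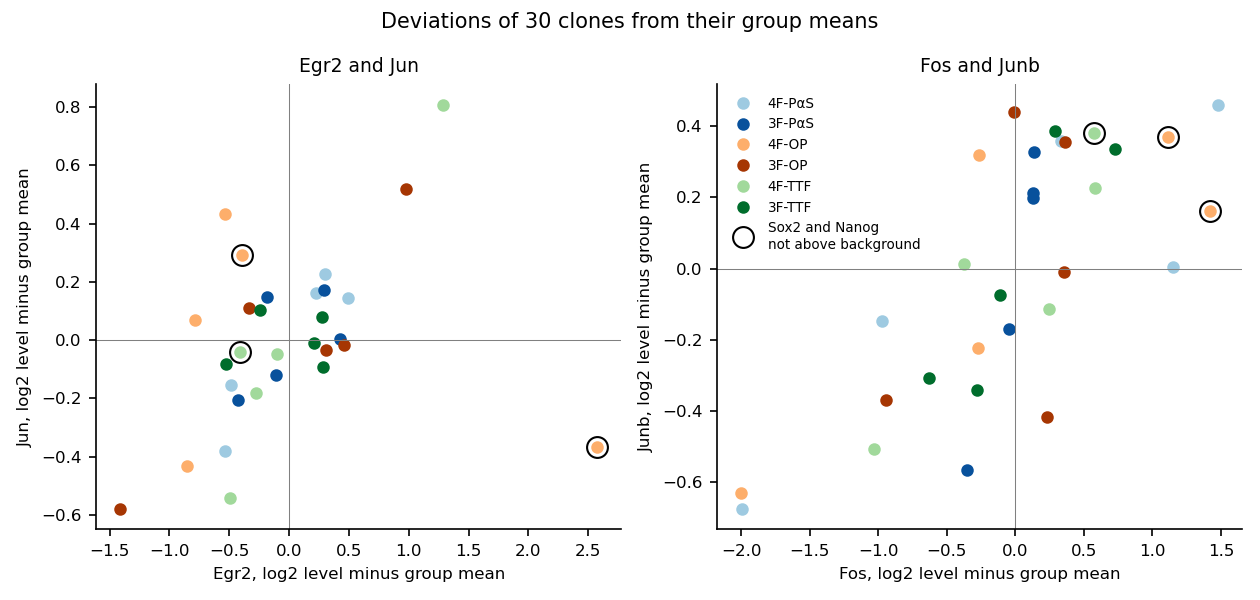
Deviation of each of 30 clones from its group mean (log2), Egr2 against Jun on the left and Fos against Junb on the right, with the 3 clones in which Sox2 and Nanog were not above background circled. In Egr2 against Jun, 4F-OP clone 1 lies far to the right and below the line of the other clones, whereas Fos and Junb align with all clones included.

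Over the 30 clones as they stand, the genes with the profile most like that of Egr2 were Cabyr (r = 0.80), 2010002N04Rik and 9230114K14Rik (both 0.78), Nipa1, Vamp4 and D330012F22Rik (each 0.77), among 27507 probes. Egr1 ranked 17 (r = 0.75) and Jun 29 (r = 0.72), while Fosb ranked 1149, Fos 4882 and Ier3 21914 (r = -0.24). The points share the group differences by which the genes were chosen. After group means were removed the closest were Synpo (r = 0.85), Speg (0.84), Snai2 (0.79), Sept5 (0.79), 2610208M17Rik and 9330159F19Rik (both 0.75).

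Against ES cells 6 members were called, 5 higher in clones beside 17.2% of all probes and 1 lower beside 19.0%. Atf3 was 12.5-fold higher (log2 3.64, SE 0.55, adjusted p = 5.31e-06), with all 30 clones (-0.08 to 3.09) above both EB-3 (-2.90) and RF8 (-1.13). Fos was 5.0-fold higher (2.32, SE 0.64, adjusted p = 0.00339), with 29 clones above both arrays at -4.00 and -3.43. Fosb differed by 1.31 (SE 0.39, adjusted p = 0.00619), Jun by 3.25 (SE 0.55, adjusted p = 2.45e-05) and Ier3 by 1.83 (SE 0.46, adjusted p = 0.00163). Ier2 was lower by its brightest probe (-1.64, SE 0.24, adjusted p = 2.49e-06), with all 30 clones below both arrays, yet its second probe gave 1.57 (SE 0.17, adjusted p = 4.46e-08), so that its direction depends on the probe. Egr1 (-0.10, 95% confidence interval -0.80 to 0.60), Egr2 (1.22, -0.12 to 2.55), Egr3 (1.02, -0.09 to 2.12) and Junb (0.48, -0.09 to 1.06) were not called.

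The ES arrays differed widely from each other. Jun stood at -4.89 in EB-3 and 0.16 in RF8, a 33.3-fold difference. Egr2 differed 10.2-fold (-5.35 and -1.99), Ier3 5.52-fold and Egr3, not above background in EB-3, at least 2.71-fold, with RF8 the higher. In the EB-3 array 10 of 20 fibroblast markers were above background, in RF8 all 20, at mean levels of -6.66 and -0.84 relative to the clones, and Col1a1 stood at -4.62 and 3.13. Their part in the difference was not tested. With RF8 alone as the reference 2 of the 6 calls stood, Atf3 and Ier2, and Jun differed by 0.72 (adjusted p = 0.0944). Fos lost its call there although its levels in EB-3 (-4.00) and RF8 (-3.43) were close. With EB-3 alone Egr2 passed as well (2.89, adjusted p = 0.00459), and so did Egr3, not above background there. Of the related lists, 18 of 36 other early response genes were higher in clones, led by Ccl2 (4.45), Cyr61 (4.05), Ptgs2 (3.93), Cxcl1 (3.66) and Ctgf (3.16), while Dusp2 fell by 2.32. Among the AP-1 and Egr relatives Fosl2 (3.61), Fosl1 (3.44) and Mafk (2.57) were higher and Egr4 fell by 2.25, and of the 20 fibroblast markers 17 were higher, beside 17.2% of all probes. Elk3 (2.59) and Elk4 (1.57), partners of serum response factor, and the stress genes Ddit3 (2.98), Hspa1a (2.33) and Ddit4 (1.67) were higher, and the pluripotency markers Zfp42, Tdgf1, Gdf3 and Sall4 were lower. Against RF8 alone 8 of the 36 early response genes were higher, beside 12.5% of all probes, and 3 of the 20 fibroblast markers. Cyr61 (2.38), Fosl1 (2.07), Mafk (1.93), Ddit3 (2.71) and Hspa1a (2.49) were among those called higher, and Dusp2, Egr4 and Zfp42 stayed lower (-3.52, -2.23 and -5.14). Not called against RF8 were Ccl2 (0.10), Ptgs2 (0.78), Cxcl1 (0.55), Ctgf (2.04), Fosl2 (0.60), Elk3 (0.81), Elk4 (1.02), Ddit4 (-0.04), Tdgf1, Gdf3 and Sall4. Clones and ES cells were scanned in different sessions, which cannot be told apart from a difference that all clones share.

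The source cells, with 1 array each and hence no error, did not carry the order of their clones in Egr2. They shared a slide and a scan session with EB-3, while all clones were scanned in another session, so that scan session and reprogramming cannot be told apart here. Egr2 stood at 1.38 in PαS cells, -4.28 in OP cells and 1.18 in TTF cells, so that the source of the lowest clones had the highest level. Egr1 was 3.27, 0.65 and -0.01, and Egr3 -1.68 in PαS cells, at least 27.9-fold above OP cells, where it was not above background. Jun stood at 2.23, 0.24 and 2.65, above all 10 clones of the source in PαS and TTF. Atf3 was lowest in PαS cells (-2.74), below all their clones, and highest in TTF (4.58), above all theirs, with -0.05 in OP cells. Ier2 and Junb of OP cells (1.75 and 3.61) lay below all 10 OP clones. The 20 fibroblast markers were above background in all 3 sources, whereas Sox2, Nanog and Pou5f1 were in none. RNA of Pdgfra, whose protein was sorted for, stood at 0.98 in PαS cells and 1.58 in OP cells. These arrays therefore do not show the order of the sort.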

How the data were processed

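Expression was measured on 35 one-colour Agilent mouse arrays. The deposited intensities are spot signals that Agilent Feature Extraction had detrended, spatially and multiplicatively, per the file headers (version 10.5.1.1 for the clones). The deposited table of log2 values had been scaled per array and centred on each probe's median by the authors in GeneSpring GX, and it served as an alternative. Control and outlier-flagged spots were left out, spots of a probe were averaged, and log2 of the intensity minus the array's 75th percentile was fitted with limma 3.58.1 in R 4.3.3, as 1 model of 7 groups (6 of 5 clones, and 2 ES arrays) over 27623 probes. Calls needed a Benjamini-Hochberg adjusted p under 0.05 and at least 2-fold.

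Correlations used Python 3.11.15 and scipy 1.17.1, with 100000 permutations within groups, two-sided. On simulated data in which 200 probes were changed by log2 1.5 in 3F-OP clones alone, the fit recovered 73.5% in the 3F to 4F contrast within OP, with 5 false calls, and 52.5% for the difference of that change between PαS and OP, with 4 false calls. Within PαS, where no probe had been changed, it made 0 calls. The simulated arrays were drawn independently, whereas real arrays of 1 slide had a correlation of 0.33. The simulation therefore says nothing of errors where slide and factors cannot be told apart.

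Members and lists were chosen with earlier results of these data known. Every probe of the members was named, with the brightest of a gene as its value, and of each list the called genes, at most 5 in each direction, together with the 6 genes most like Egr2. Alternatives were normexp with an offset of 50, quantile normalization, the deposited table, no filter on dim probes, no fold minimum, the slide as a block, the clone number as a block, each array left out, each ES array alone, other probes, and sets of clones left out. The sets of 4F-PαS clones 1 and 4 and of 3F-OP clones 1 and 3 were chosen after the data were seen. Clone numbers did not pair samples (16 of 75 same-number pairs correlated above 0.1, median r -0.000413). Promoters came from RefSeq tables on GRCm38.p6, probe positions on mm7 from the scanner files.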

Additional observations from a re-analysis of the deposited data

Results flagged for a closer look

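In each group of 5 clones the highest and lowest value of each member was set against Dixon's 95% limit, which chance exceeds in about 1 of 20 groups. Of the 55 groups checked, 6 held such a clone. Egr2 stood at 0.48 in 4F-OP clone 1, with the next clone at -2.49, and at -2.02 in 4F-TTF clone 5, with the next at -3.40. Ier3 was low in the same 4F-TTF clone 5, at 1.24 against 2.72 for the next. Atf3 reached 3.09 in 4F-OP clone 2, with the next at 0.59. Fos was low at -2.18 in 3F-OP clone 5 (next -1.25), and Fosb was high at -2.41 in 3F-OP clone 2 (next -3.16). 4F-OP clone 1 was one of the 3 clones with Sox2 and Nanog not above background, and 4F-TTF clone 5 was the only 4F-TTF clone hybridized on the slide of 3F-PαS clones 1 to 3.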

How the results depend on the processing

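Of the values for single members under alternatives that left out no single array, 1072 kept their side of the threshold, 32 lost it, 18 gained it and 2 that had been called turned sign. Among values not called to begin with 32 had the opposite sign, 4 of them Ier2 by its second probe. The PαS to OP difference of Egr3 turned to 0.0869 under normexp, and Ier2 was 1.57 higher in clones than in ES cells by its second probe. Counts here include Egr3, and those for PαS to OP only describe the contrast that chose the members. The share of all probes called can shift with the setting as well. A changed count of members is therefore not by itself a property of these genes. Under normexp the number of members called was 1 for PαS to OP (3 otherwise), 1 for 3F to 4F (3), 1 within OP (2), 1 within TTF (4) and 1 for the change in PαS against TTF (0), and without the 3 clones low in Sox2 and Nanog it was 1 for PαS to OP, 1 within OP and 2 within TTF. With the slide as a random block it was 1 within OP and 0 within TTF, and 0 within TTF as a fixed block. Without 3F-OP clones 1 and 3 it was 1 for the change in PαS against OP (0 otherwise), and against RF8 alone 2 for clones to ES cells (6). Against RF8 alone 12.5% of all probes were called higher in clones and 16.6% lower. Both shares lay below those with both ES arrays. Egr2 correlated with 3 members (Egr3 among them) without the 3 clones low in Sox2 and Nanog, with the same 3 without the 2 clones most distant in Egr2, and with 2 when slide means were removed (0 otherwise).

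The clone numbers do not pair the samples. With the clone number as a replicate block the counts stayed, except that Ier3 was called for the change in PαS against TTF (1 member, 0 without the block) and within TTF. With 1 array left out at a time the calls ranged from 0 to 1 within PαS, 2 to 3 within OP, 2 to 5 within TTF, 0 to 2 for the change in PαS against OP and 0 to 2 against TTF. They ranged from 2 to 3 for 3F to 4F, stayed at 6 for clones to ES cells with a clone left out (2 with EB-3 left out, 8 with RF8), and at 0 for TTF to bone marrow and for the change in OP against TTF. Egr3 lay near background in most groups, which limits its values. The cause of the other shifts was not tested, nor whether they went beyond shifts in the share of all probes called.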
